A study of Homo sapiens with 7 samples.

Results

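The assays of 7 epithelial microRNAs were followed across the lines of this series, those for the 5 members of the miR-200 family (miR-200a, miR-200b, miR-200c, miR-141 and miR-429) and those for miR-203 and miR-205, out of 377 human microRNAs on the card. They were found by the names of the assays, with earlier results of these data known, and all 7 were found on each of the 7 cards. The samples are 3 oligometastatic L1-R2 and 4 polymetastatic L1Mic-R2 cell lines, called Ol-like and Poly-like in the labels, all descended from MDA-MB-435 cells that carry green fluorescent protein (GFP). The L1-R2 group (lines 4T, 3T, 8T) came from lungs of athymic female mice injected with a line grown from a visible lung metastasis, and the L1Mic-R2 group (lines 2T, 3T, 7T, 8T) from lungs of mice injected with tumor cells from the part of that same lung that was free of visible metastases. Cells were injected into the tail vein according to the paper and into the mammary fat pad according to the labels, and tumor cells were selected with G418 in both groups. The 7 lines came from 7 animals, and all share 1 parental line, which was long listed as breast cancer and matches the melanoma line M14 in its genotype. No epithelial cell line was profiled beside them, and no microRNA was added or deleted in these samples.

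MicroRNAs are short RNAs that pair with messenger RNAs through their seed, bases 2 to 8 from the 5′ end, and lower the output of those messages. The miR-200 family is known as a guard of the epithelial state. It represses ZEB1 and ZEB2, repressors of the adhesion protein E-cadherin, and ZEB1 and ZEB2 in turn repress both miR-200 loci, so that epithelial cells carry much of the family and mesenchymal cells little. MiR-203 limits the stem-like potential of dividing keratinocytes in skin, and miR-205 marks basal and other stratified epithelia and also targets ZEB1 and ZEB2.

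The sequences show how the family divides in both of its dimensions, by seed and by locus. All 7 members matched a RefSeq mature sequence. The deposited files give no assay sequences, so each card name without an arm was read as the arm that carried the plain name when the card was made. Capitals mark the seed.
miR-200b: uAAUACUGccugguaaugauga
miR-429: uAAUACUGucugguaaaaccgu
miR-200c: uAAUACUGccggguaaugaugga
miR-200a: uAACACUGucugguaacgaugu
miR-141: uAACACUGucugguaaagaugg
miR-203: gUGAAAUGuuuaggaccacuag
miR-205: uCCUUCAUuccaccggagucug
The family has 2 seeds. MiR-200b, miR-200c and miR-429 share AAUACUG, which no other of the 2370 mature sequences in the RefSeq table has, and miR-200a and miR-141 share AACACUG, again with no other. Counted from the 5′ end, the substitution U4C leads from the first seed to the second, as in miR-200b against miR-200a. The closest relatives lie on different chromosomes. Over 22 compared positions miR-200b and miR-200c differ at 2 (U11G and A22G, with 1 more base at the end of miR-200c), and miR-200a and miR-141 also differ at 2 (C17A and U22G).

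By locus the grouping is another one. In GRCh38.p14 the hairpins of miR-200b (chr1:1167104-1167198), miR-200a (chr1:1167863-1167952) and miR-429 (chr1:1169005-1169087) lie within 1984 bases on the plus strand of chromosome 1, inside the noncoding gene MIR200BHG. Those of miR-200c (chr12:6963699-6963766) and miR-141 (chr12:6964097-6964191) lie within 493 bases on the plus strand of chromosome 12, inside MIR200CHG. MiR-203 (chr14:104117405-104117514) overlaps the opposite-strand microRNA gene MIR203B, and miR-205 (chr1:209432133-209432242) lies in the noncoding gene MIR205HG. Each locus of the family thus holds both seeds, and each seed is encoded at both loci.

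MicroRNA was measured by quantitative PCR on 1 card per line, and the values are threshold cycles (Ct), the PCR cycle in which a well's fluorescence reaches a fixed level. A lower Ct stands for more RNA, and 1 cycle is 1 unit on the log2 scale. A well that never crossed is called Undetermined and is listed as 40, and a microRNA below 38 was called detected. In all, 160 to 172 microRNAs were detected per L1Mic-R2 line and 172 to 184 per L1-R2 line. The control RNA U6 had a raw Ct between 15.97 and 16.77, RNU44 between 23.67 and 25.97 and RNU48 between 18.81 and 20.97, and the lowest of each was L1-R2 line 4T. Each member had 1 well per card, so that no line has an error of its own and neighbouring lines in an order of levels could not be tested against each other. The 4 wells of U6 on a card had an SD between 0.0272 and 0.0983 cycles, at a far lower Ct than any member. Card numbers ran from 1 to 3 for L1-R2 and from 4 to 7 for L1Mic-R2, so that group and order of the cards cannot be told apart.

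These epithelial microRNAs were low or undetected in the 7 lines, as was much of the card. Of their 49 wells, 23 were Undetermined and another 3 had a Ct of 38 or more. MiR-200b and miR-200c were detected in all 7 lines, miR-200a in 4, miR-429 in 3, miR-203 in 2, and miR-141 and miR-205 in 0. Of all 377 microRNAs, 135 were detected in all 7 lines and 152 in none. The median raw Ct was 39.29 for the members and 40 for all 377. Both lie past the limit of 38, so that these medians cannot tell whether the members were lower than the card as a whole. Among the L1-R2 lines, 4T had 4 members detected, 3T had 4 and 8T had 3. Among the L1Mic-R2 lines, 2T had 2, 3T had 2, 7T had 5 and 8T had 3. The groups overlapped (3.67 ± 0.577, SD, n = 3, against 3 ± 1.41, SD, n = 4), and an exact two-sided permutation test gave p = 0.514. L1Mic-R2 line 7T thus had the most members of any line, more than each L1-R2 line. The lowest Ct of any member in any line was 30.10, for miR-200c in L1-R2 line 3T, where 19.9% of the 377 microRNAs had a lower Ct. Assays differ in efficiency, so such an order within a card is approximate.

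**Figure D1:**
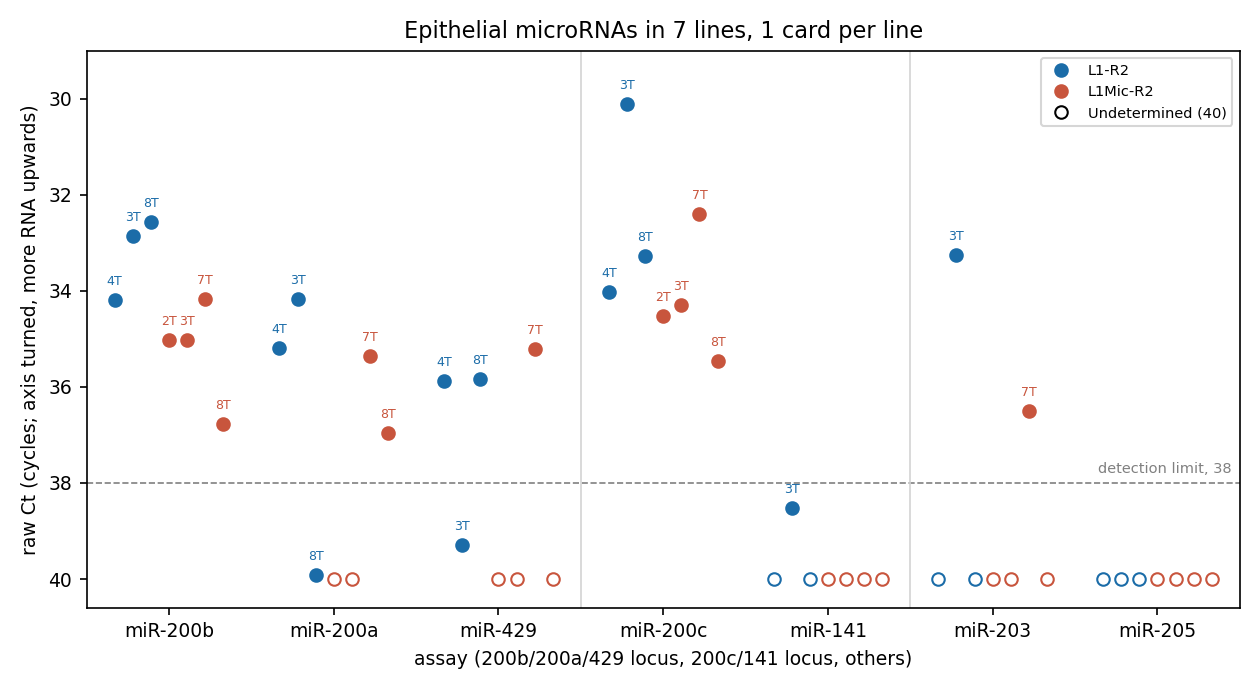
Raw Ct (vertical axis, cycles, turned so that more RNA is higher) of the 7 assays on the horizontal axis, with 1 point per line, L1-R2 in blue, L1Mic-R2 in red, and open points for Undetermined wells set at 40. MiR-200b and miR-200c lie above the dashed limit of 38 in all 7 lines, miR-203 in 3T of L1-R2 and 7T of L1Mic-R2 alone, and miR-205 in none.

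On chromosome 1, miR-200b was the member found everywhere. Among the L1-R2 lines, the raw Ct of miR-200b was 34.20 (4T), 32.86 (3T) and 32.57 (8T). Among the L1Mic-R2 lines it was 35.03 (2T), 35.02 (3T), 34.17 (7T) and 36.76 (8T). L1-R2 lines 3T and 8T were the highest in RNA and L1Mic-R2 line 8T the lowest, while 4T of L1-R2 and 7T of L1Mic-R2 overlapped. It spanned 4.19 cycles, which is 18.2-fold if each cycle doubles the product.

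MiR-200a, processed from a hairpin next to miR-200b, did not follow it in every line. It was detected in 2 L1-R2 lines, at 35.19 (4T) and 34.18 (3T), and in 2 L1Mic-R2 lines, at 35.35 (7T) and 36.96 (8T). It was 39.92, past the limit, in L1-R2 line 8T, the line with the most miR-200b, and Undetermined in L1Mic-R2 lines 2T and 3T. Where both were detected, miR-200a came 0.20 to 1.31 cycles after miR-200b. In L1-R2 line 8T no such distance is given, since miR-200a was past the limit there.

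MiR-429, the most distant hairpin of the locus, with the seed of miR-200b, was detected in L1-R2 lines 4T (35.88) and 8T (35.83) and in L1Mic-R2 line 7T (35.20). It had a Ct of 39.29 in L1-R2 line 3T and was Undetermined in the 3 other L1Mic-R2 lines. L1-R2 lines 3T and 8T were thus opposite for these neighbours. Line 3T held miR-200a at 34.18 with miR-429 at 39.29, and line 8T held miR-429 at 35.83 with miR-200a at 39.92. All 3 hairpins of the chromosome 1 locus were detected together in 1 line of each group, 4T of L1-R2 and 7T of L1Mic-R2. These values come from single wells close to the limit of detection, and the error of a repeated well at this Ct was not measured.

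On chromosome 12, miR-200c was detected in each line, and miR-141, encoded in the same noncoding gene, in none. The miR-200c values spread more than those of miR-200b, from a raw Ct of 30.10 in L1-R2 line 3T and 32.40 in L1Mic-R2 line 7T to 35.46 in L1Mic-R2 line 8T. The other 4 lines lay between 33.27 and 34.53. The whole span was 5.36 cycles.

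MiR-141 was Undetermined in 6 lines. Its single Ct, 38.51, was in L1-R2 line 3T, the line with the most miR-200c, and lay past the limit of 38, so that no distance from miR-200c is given. MiR-200a, which shares its seed with miR-141 and differs from it at 2 positions, was detected in 4 lines in which the miR-141 assay gave no Ct below 38.

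MiR-203, the keratinocyte microRNA, was detected in 1 line of each group. Its raw Ct was 33.26 in L1-R2 line 3T and 36.50 in L1Mic-R2 line 7T, and it was Undetermined in the 5 other lines. These are the lines with the lowest and the next lowest Ct of miR-200c. MiR-203 came 3.15 cycles after miR-200c in L1-R2 line 3T and 4.10 cycles after it in L1Mic-R2 line 7T. With values in 2 lines no relation between them can be tested. MiR-205 was Undetermined in all 7 lines, and gave no Ct with which to compare the groups.

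To set the loci side by side within a card, the raw Ct of miR-200b was subtracted from that of miR-200c in each line, which cancels any shift of a whole card. Among the L1-R2 lines the difference was -0.18 (4T), -2.76 (3T) and 0.69 (8T) cycles. Among the L1Mic-R2 lines it was -0.50 (2T), -0.72 (3T), -1.77 (7T) and -1.30 (8T) cycles. It was below 0 in 6 lines, and the exception was L1-R2 line 8T. The groups overlapped, with a mean for L1-R2 of -0.75 ± 1.80 (SD, n = 3) and for L1Mic-R2 of -1.07 ± 0.58 (SD, n = 4). The difference between them was -0.32 cycles, less than the spread of either group (exact two-sided permutation test, p = 0.771). It turned to 0.40 cycles when L1-R2 line 8T was left out.

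Over the 7 lines, the normalized Ct of miR-200b and miR-200c rose together in rank (Spearman's rho 0.857, exact two-sided permutation p = 0.0238) but less clearly in value (Pearson's r 0.616, exact two-sided permutation p = 0.141). This was the only pair computed, since no other members were detected in all 7 lines. Without line 8T of either group, the lines that lay farthest from the median of miR-200b, Pearson's r was 0.952 over the other 5 lines. Without L1-R2 line 8T alone it was 0.915, and without L1Mic-R2 line 8T alone it was 0.531. These lines were left out with their values known, and no test is drawn from what remained. For the raw Ct of all 7 lines Pearson's r was 0.769 (exact permutation p = 0.0486). Pearson's r was not computed within the groups of 3 and 4 lines. How much of it comes from the difference between the groups was not tested.

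**Figure D2:**
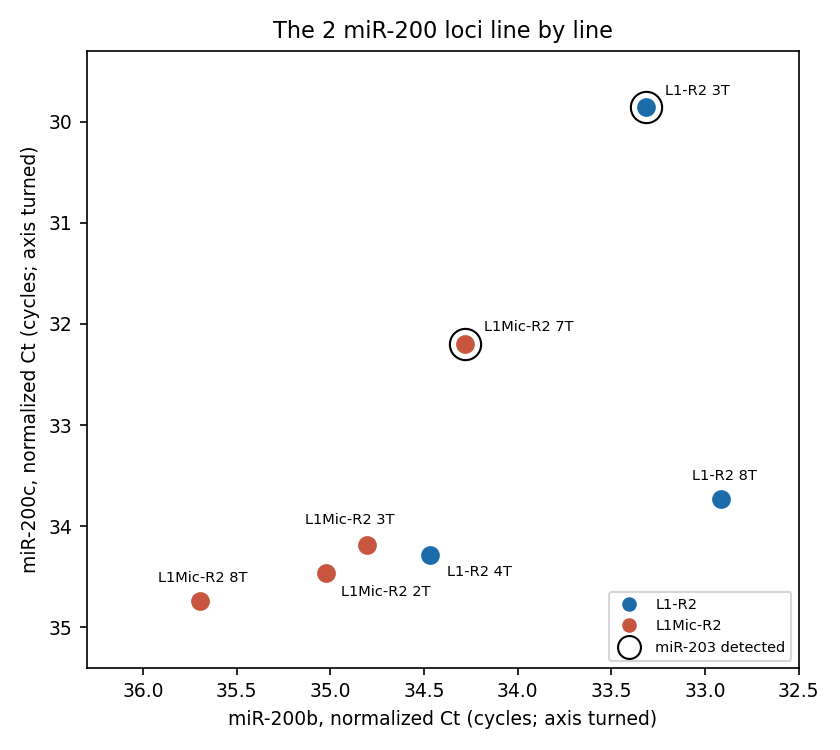
Normalized Ct of miR-200b (horizontal axis) against that of miR-200c (vertical axis), both in cycles and turned so that more RNA is to the right and up, with 1 point per line, L1-R2 in blue and L1Mic-R2 in red; rings mark the lines with miR-203 detected. The ringed lines, L1-R2 3T and L1Mic-R2 7T, have the lowest Ct of miR-200c, and L1-R2 8T has the lowest Ct of miR-200b with miR-200c at 33.73.

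After quantile normalization, which gives each card the same distribution of Ct, miR-200c was the most variable within groups of the 135 microRNAs detected in all 7 lines. Its SD within groups, pooled over both, was 1.77 cycles, and 0 of the 135 had a larger one. MiR-200b had 0.683 cycles, and 28 had a larger one. For a comparison at like Ct, among the 36 microRNAs with a mean raw Ct between 32 and 36 the median was 0.729 cycles, close to miR-200b and below miR-200c. Without L1-R2 line 3T the SD of miR-200c was 1.02 cycles and 10 microRNAs exceeded it, while 0 did so without any of the 6 other lines. MicroRNAs that were lost in some lines were not part of this comparison.

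**Figure D3:**
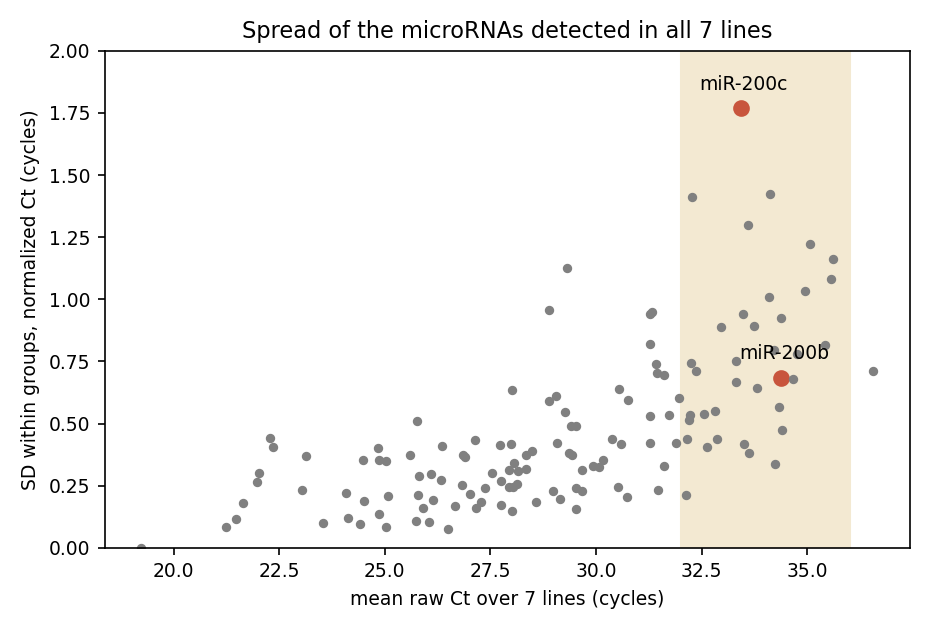
SD within groups of the normalized Ct (vertical axis, cycles, n = 7 lines) against the mean raw Ct (horizontal axis, cycles) for the 135 microRNAs detected in all 7 lines, with miR-200b and miR-200c in red and the band from 32 to 36 shaded. MiR-200c stands highest at 1.77, and miR-200b, at 0.683, lies among the others of its band.

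The groups were compared with limma on 40 minus the normalized Ct, for the 181 microRNAs with a raw Ct below 38 in 3 or more lines. Of the 7 members, 4 passed this filter. A negative fold change stands for less RNA in L1Mic-R2. None of these 4 passed an adjusted p under 0.05 (Benjamini-Hochberg), a threshold passed by 9 of the 181 microRNAs, or 4.97%, with 1.66% lower and 3.31% higher in L1Mic-R2. At an unadjusted p under 0.05 there was 1 member, miR-200b, against 19.3% of all microRNAs tested, or 9.94% when only those lower in L1Mic-R2 are counted. The groups did not overlap for 0 of the 4 members and for 19.3% of all microRNAs tested. The 4 fold changes were all negative, with a median of -1.33 against 0.06 over all microRNAs tested, of which 83 of 181 were negative. MiR-200b, miR-200a and miR-429 come from 1 locus, so that the 4 signs are not independent of each other. The filter kept members through the lines that had them, so that the count of negative fold changes covers the members tested and not the 7.

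For miR-200b the L1-R2 lines had a normalized Ct of 33.56 ± 0.81 (SD, n = 3) and the L1Mic-R2 lines of 34.95 ± 0.59 (SD, n = 4). The log2 fold change was -1.39 (standard error 0.49, 95% interval from -2.57 to -0.21, unadjusted p = 0.0282 and adjusted p = 0.176 from limma), the 29th smallest p of 181. The groups overlapped through L1-R2 line 4T, and the exact two-sided permutation test gave p = 0.0857, where 0.0286 is the smallest p that 3 against 4 lines allow.

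For miR-200c the log2 fold change was -1.28 with a 95% interval from -4.25 to 1.70, so that neither equal levels nor a difference of several cycles could be told from these lines. Without L1-R2 line 3T it turned to 0.13. The means were 32.62 ± 2.41 (SD, n = 3) and 33.90 ± 1.16 (SD, n = 4). MiR-200a, Undetermined in 2 L1Mic-R2 lines that were set at 40, gave -1.21 with an interval from -5.66 to 3.23. MiR-429, Undetermined in 3, gave -1.80 with an interval from -5.54 to 1.94. The adjusted p from limma was 0.608 for miR-200c, 0.737 for miR-200a and 0.572 for miR-429, and the exact two-sided permutation test gave p = 0.457, p = 0.6 and p = 0.314.

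MiR-203 and miR-141 were detected in too few lines for the fit. Their normalized means were 37.94 and 39.33 for miR-203, and 39.62 and 40 for miR-141, in L1-R2 and L1Mic-R2, with most wells at 40. The exact two-sided permutation test gave p = 0.714 for miR-203 and p = 0.429 for miR-141. In a culture, less RNA per cell and fewer cells with the microRNA cannot be told apart, and this holds for each of these values.

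**Figure D4:**
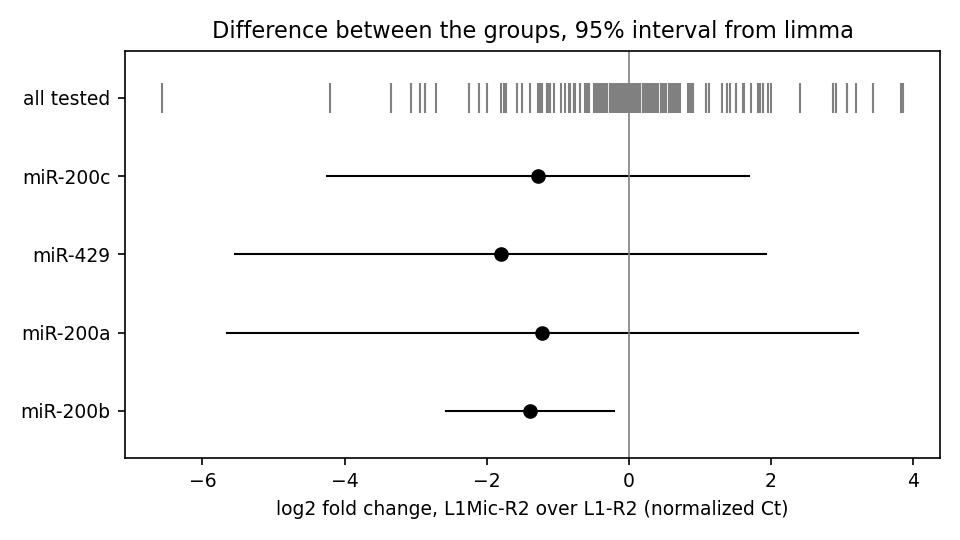
Log2 fold change between the groups (horizontal axis, from normalized Ct, negative for less RNA in L1Mic-R2) of the 4 members tested, with points for the estimate and lines for the 95% interval of limma, and 1 grey tick for each of the 181 microRNAs tested. All 4 estimates are below 0, and in this fit the interval of miR-200b, from -2.57 to -0.21, is the only one that leaves out 0. The intervals are not adjusted for the 181 microRNAs.

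The level of these microRNAs was set beside 3 further lists, whose members mark epithelium, mesenchyme or melanocytes in other tissues. Beside 135 of all 377 microRNAs on the card, 5 of 8 other epithelium-linked ones were detected in all 7 lines. They were miR-31 (raw Ct 26.48 to 27.33), miR-182 (28.77 to 29.98) and miR-183 (32.88 to 33.95), which also occur in melanoma, and miR-192 (28.68 to 31.07) and miR-194 (30.86 to 33.87), known from gut, liver and kidney. Of the 5, miR-192 passed the adjusted threshold and was lower in L1Mic-R2 (log2 fold change -1.51, adjusted p = 0.0392 from limma), beside 4.97% of all 181 microRNAs tested and 1.66% called lower. The median of the list was -0.45. This call was lost wherever 0 microRNAs passed, which was the case after subtraction of RNU44 and RNU48, with no detection filter, with a replicate block, and without 3T or 8T of L1-R2 or 2T of L1Mic-R2. MiR-375, a microRNA of endocrine cells and some epithelia, was detected in L1-R2 lines 3T (34.94) and 8T (33.42) only. MiR-96 was detected in L1-R2 lines 4T (36.05) and 8T (36.29) only, and miR-215 in none. Over the whole card, 172 to 184 microRNAs were detected per L1-R2 line and 160 to 172 per L1Mic-R2 line. How many of all 377 were detected in L1-R2 only was not counted, so that these cases are not set apart from the card.

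Of 6 mesenchyme-linked microRNAs, 5 gave no Ct in any of the 7 lines, including miR-143, miR-145 and miR-214, which mark smooth muscle and fibroblasts. MiR-199a-3p was detected in 3 lines, at 35.88 to 36.19. Of all 377 microRNAs on the card, 152 were detected in no line, so that absence alone does not set this list apart.

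Of 9 melanoma-linked microRNAs on the card, 6 were detected in all 7 lines, miR-211 in 5, miR-513-5p in 2 and miR-507 in 0. Of all 377 microRNAs, 135 were detected in all 7 lines. MiR-204 (25.79 to 26.92), miR-508-3p (25.92 to 27.82) and miR-509-5p (26.62 to 29.08), the last pair from a cluster on chromosome X known from melanoma and testis, had a lower raw Ct than any member in each line. MiR-211, made from an intron of the melanocyte gene TRPM1, ranged from 27.49 in L1-R2 line 8T to Undetermined in L1Mic-R2 lines 2T and 8T. The 7 that were tested had negative fold changes, with a median of -0.95, and 1 of them, miR-509-3-5p, passed the adjusted threshold (log2 fold change -2.71, adjusted p = 0.0392 from limma). Like that of miR-192, this call was lost wherever 0 microRNAs passed. Without L1Mic-R2 line 3T only 1 microRNA passed, so that at least 1 of these calls was lost there too. Over all 181 microRNAs tested, 83 fold changes were negative and 4.97% were called. Summed over the list, the level corresponded to a raw Ct of 24.36 to 25.03 in L1-R2 and 25.25 to 26.08 in L1Mic-R2, against 29.70 to 32.61 and 31.69 to 34.51 for the 7 epithelial members. In raw Ct, the summed melanoma-linked level thus differed between the groups in the direction of miR-200b, without overlap but with a narrow gap (25.03 against 25.25). The lack of overlap depends on the scale, since RNU48 was 18.81 in L1-R2 line 4T (summed level 24.41) and 20.07 to 20.97 in L1Mic-R2. The part of this level in the difference of miR-200b was not tested. Of all microRNAs tested, 19.3% had no overlap in normalized Ct. The sum is of raw Ct, for which the median fold change of all microRNAs tested was -0.25.

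**Figure D5:**
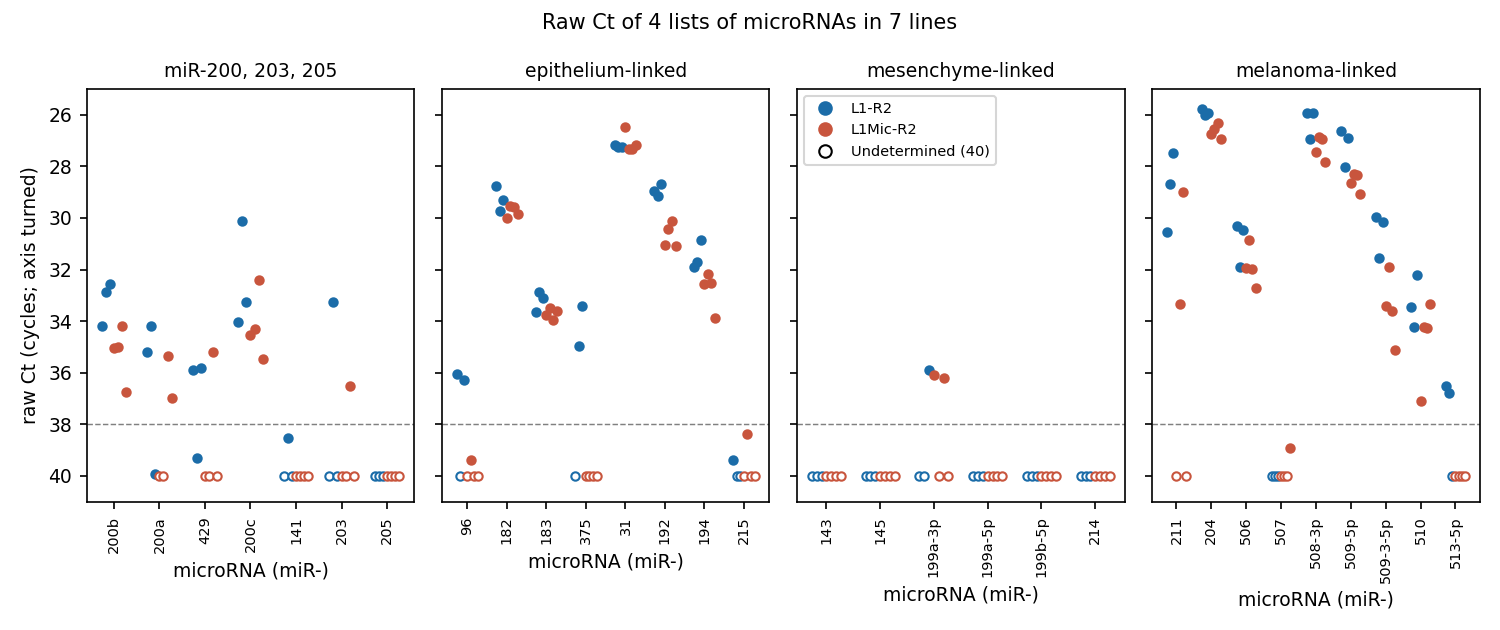
Raw Ct (vertical axis, cycles, turned so that more RNA is higher) of the 7 epithelial microRNAs and of 3 further lists, with 1 point per microRNA and line, L1-R2 in blue, L1Mic-R2 in red and open points for Undetermined wells set at 40. The melanoma-linked microRNAs reach 25.79 and the members 30.10, and 5 of the 6 mesenchyme-linked ones are open in all lines.

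Of the 133 microRNAs that were detected and varied in all 7 lines and could be set against miR-200b, the closest over the lines by Pearson's r of the normalized Ct were miR-194 (0.936), miR-30b (0.903) and miR-146b-5p (0.853). MiR-194 had its lowest raw Ct, 30.86, in L1-R2 line 8T and its highest, 33.87, in L1Mic-R2 line 8T, the same lines as miR-200b. Like miR-200b, miR-194, miR-30b and miR-146b-5p were lower in L1Mic-R2 (log2 fold changes -0.90, -0.69 and -1.14). How much of their r comes from the difference between the groups was not tested. Those closest to miR-200c were miR-28-3p (0.802), miR-320 (0.774) and miR-212 (0.756), each with a smaller range than miR-200c. MiR-320 has the same normalized value in 5 of the 7 lines, since its rank on those cards was equal. MiR-200c was 24th in closeness to miR-200b, and miR-200b 10th in closeness to miR-200c. All values share the 7 cards and their normalization, and are given as a description.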

How the data were processed

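Total RNA of 7 lines was reverse transcribed and run on TaqMan Human MicroRNA Array A cards. The authors deposited a raw threshold cycle for each assay, a log2 scale, with 40 for Undetermined wells and a fluorescence threshold of 0.3. The paper names SDS RQ Manager for the import. Groups and line numbers follow the labels. The names of 2 L1-R2 files exchange lines 3T and 4T.

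The 381 assays were quantile normalized across cards with limma 3.58.1 in R 4.3.3, the normalization that the paper names for its array data. MicroRNAs with a raw Ct below 38 in at least 3 lines were fitted with limma on 40 minus Ct (lmFit, eBayes, Benjamini-Hochberg). Single values were compared by exact permutation of the 35 splits of the lines, and functions were tested on simulated data. The members, the lists and the rule for named microRNAs (members, controls, lists and the 3 closest to miR-200b and to miR-200c) were chosen with earlier results of these data known. The melanoma-linked list names 10 microRNAs, of which 9 were found on the card. As alternatives, the normalization, the limit of Ct, the filter and the fit were changed, a replicate block was added, and single lines were left out. Sequences and coordinates are from RefSeq (GRCh38.p14). Lines came from distinct animals, with 1 card each, so that biological and measurement spread are mixed.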

Additional observations from a re-analysis of the deposited data

Results flagged for a closer look

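In L1Mic-R2, line 7T stood apart from the other 3 lines for miR-429 and for miR-203, with a gap over range of 1 for both the raw and the normalized Ct. For miR-429 its raw Ct was 35.20, and for miR-203 it was 36.50, and the other 3 lines were Undetermined and set at 40. With 3 lines at this ceiling a gap over range of 1 is fixed by 1 detected well, so that it says nothing of how unusual line 7T is, and no chance rate applies. The raw and normalized values are the same wells.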

How the results depend on the processing

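Over all results and settings but the file-name numbers, 90 values held in direction and call, 10 were weaker, 6 stronger and 4 reversed. A value short of the threshold in both settings was counted as held. Another filter, or the robust fit with a trend, leaves each fold change as it was (-1.39 for miR-200b), which fixes its direction in advance. The fold changes of miR-200b, miR-200a and miR-429 stayed negative, and those of all 4 members tested stayed short of the adjusted threshold, under every alternative that gave a value. MiR-200b ran from -2.14 (replicate block) to -1.23 and from -1.88 to -1.05 without one line. MiR-200c ran from -2.67 to -0.46 (both block values), and from -2.14 to 0.13 without one line, the 0.13 without L1-R2 line 3T. The median of all microRNAs moved from 0.06 to -0.25 for raw Ct, -0.19 after U6 and 0.56 after RNU44 and RNU48 were subtracted. MiR-200b minus this median was -1.79 on each of these scales and -1.44 after quantile normalization. The scales with -1.79 differ by a constant per line, so their agreement was fixed in advance and is no sign of a stable result. MiR-429 gives no value with Ct limited to 35 or where the filter drops it.

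The count of 9 microRNAs called became 14 when detection in 7 lines was required, 21 with a robust fit and a trend in limma, 0 with RNU44 and RNU48 (37 unadjusted), 0 without a filter (42 unadjusted), and 0 to 4 without one line (28 to 39 unadjusted). Numbers 3T and 8T are shared by the groups but belong to different animals, and same-numbered lines did not deviate together (correlations of -0.0441 and -0.197 across microRNAs). With the replicate block the count was 0 (19 unadjusted), and 0 (27 unadjusted) with the numbers of the file names (chosen after seeing the data). The block rests on 3T and 8T of each group, so that L1-R2 4T and L1Mic-R2 2T and 7T do not enter. It gave -2.14 for miR-200b, -2.67 for miR-200c, -0.84 for miR-200a, -2.51 for miR-429 and -1 for the number of members detected. With the file-name numbers, where L1-R2 line 4T takes the place of 3T, the block gave -1.56 for miR-200b, -0.46 for miR-200c and -0.29 for miR-200a. For miR-429 it gave -4.13 (limma, unadjusted p = 0.00377, adjusted p = 0.178). Both L1Mic-R2 wells behind that value (3T, 8T) were Undetermined and set at 40, and 7T (raw Ct 35.20) did not enter. No result is drawn from this p.

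The group difference of miR-200c minus miR-200b, -0.32 cycles, turned to 0.013 with Ct limited to 35 and to 0.024 in the replicate block. It ran from -1.33 to 0.40 without one line. Pearson's r between miR-200b and miR-200c, 0.616, passed 0.05 for raw Ct (0.769) and after subtraction of U6 (0.777) or of RNU44 and RNU48 (0.797), and ran from 0.452 to 0.915 without one line (exact permutation p from 0.00278 to 0.319). The causes were not tested. MiR-200a, miR-429 and miR-203 rest on single wells, many of them Undetermined.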
